A study of Rattus norvegicus with 24 samples.

Results

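The genes described here were those that 1 brain array of a D-serine experiment showed far above all the others. The array is labelled 500 mg/kg replicate 4 and is called the outlying array below. A gene was taken where its value on that array was at least 2 higher, on the scale of log2(intensity + 16) after quantile normalization, than the mean of the other 3 arrays at 500 mg/kg, and also higher than on each of the other 23 arrays. Of 14217 genes, 96 reached the difference of 2 and 95 of them (0.668%) also stood above every other array. The exception was Ttr, the thyroxine carrier of the choroid plexus, at 12.67 on the outlying array and at up to 13.09 elsewhere. The rule then dropped 7 genes by symbol: Calb2 (3.10 higher), Pvalb (3.01), Kcnc1 (2.97), Grm4 (2.45), Reln (2.39), Rab37 (2.15) and Col9a2 (2.12). That left 88 members. They were chosen by their measured values on the outlying array, so their level there is a description and was not tested.

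The experiment gave male F344 (Fisher) rats, 11 to 12 weeks old, a single dose of vehicle or of 5, 20, 50, 200 or 500 mg/kg D-serine, a coagonist of the NMDA type glutamate receptor. RNA was taken 96 h later from a forebrain piece, and the labels do not say how it was cut out. Each of the 6 groups held 4 rats, each with an Affymetrix array of its own. No genotype, strain or treatment other than the dose differed between the groups.

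The cerebellum is built from a few cell types in a repeating circuit. Granule cells receive mossy fibres and send parallel fibres to Purkinje cells, which are the only output of the cerebellar cortex and store and release calcium through a large endoplasmic reticulum. Bergmann glia enclose the Purkinje dendrites, and unipolar brush cells relay within the granule layer. Engrailed, Irx and other transcription factors mark tissue behind the forebrain in development, whereas Lhx2, Emx and Dlx genes mark the forebrain.

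The 6 genes given as cerebellar markers, Pcp2, Cbln1, Gabra6, Fat2, Car8 and En2, were all among the 88 and held ranks 1 to 5 and 7 by difference. No label says that the tissue was cerebellum, so the name of the group rests on these genes. The cerebellar and position lists below hold the 6 markers again and use values of the same array. They were chosen with earlier results of these data known, so they describe the members and are not separate evidence for the name. RefSeq promoters (250 bases before to 50 after the start, GRCr8) could be matched for 68 members. The following 6 belong to members of the 12 with the largest difference and are shown so that Purkinje, granule, patterning and D-serine genes can be set side by side. Capitals mark a match to a searched motif on either strand, and a promoter with no capitals held none. Pcp2 lies at chr12:6481258-6481557 on the minus strand, Gabra6 at chr10:27327185-27327484 on the minus strand, Fat2 at chr10:39956853-39957152 on the minus strand, En2 at chr4:7960744-7961043 on the minus strand, Dao at chr12:48273251-48273550 on the minus strand and Ppp1r17 at chr4:86543871-86544170 on the plus strand.
Pcp2: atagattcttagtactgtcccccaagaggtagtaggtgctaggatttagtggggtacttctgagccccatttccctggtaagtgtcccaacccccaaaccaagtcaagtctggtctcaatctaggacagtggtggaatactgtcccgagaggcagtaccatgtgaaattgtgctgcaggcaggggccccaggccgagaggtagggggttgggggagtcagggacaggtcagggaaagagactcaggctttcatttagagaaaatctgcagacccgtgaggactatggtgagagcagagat
Ppp1r17: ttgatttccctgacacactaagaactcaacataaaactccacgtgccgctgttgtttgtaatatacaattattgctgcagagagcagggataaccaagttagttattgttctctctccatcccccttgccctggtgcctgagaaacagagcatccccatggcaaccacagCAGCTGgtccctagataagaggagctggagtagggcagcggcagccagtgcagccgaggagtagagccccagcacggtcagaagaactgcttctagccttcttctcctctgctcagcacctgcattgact
Gabra6: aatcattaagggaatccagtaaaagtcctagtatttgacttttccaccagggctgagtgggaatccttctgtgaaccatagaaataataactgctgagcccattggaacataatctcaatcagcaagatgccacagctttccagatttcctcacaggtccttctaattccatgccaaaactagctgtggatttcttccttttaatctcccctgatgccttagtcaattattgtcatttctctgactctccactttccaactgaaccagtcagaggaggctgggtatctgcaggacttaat
Fat2: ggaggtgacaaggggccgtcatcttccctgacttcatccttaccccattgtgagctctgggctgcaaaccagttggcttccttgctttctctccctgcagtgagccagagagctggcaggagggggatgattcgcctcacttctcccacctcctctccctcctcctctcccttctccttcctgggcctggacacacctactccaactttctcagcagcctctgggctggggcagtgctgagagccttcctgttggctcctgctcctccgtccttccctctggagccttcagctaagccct
En2: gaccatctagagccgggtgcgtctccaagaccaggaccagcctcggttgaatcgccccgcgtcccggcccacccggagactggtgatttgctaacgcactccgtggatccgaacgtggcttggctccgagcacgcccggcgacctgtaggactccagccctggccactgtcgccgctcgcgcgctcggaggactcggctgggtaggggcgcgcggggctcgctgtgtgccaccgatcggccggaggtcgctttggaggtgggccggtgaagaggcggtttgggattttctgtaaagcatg
Dao: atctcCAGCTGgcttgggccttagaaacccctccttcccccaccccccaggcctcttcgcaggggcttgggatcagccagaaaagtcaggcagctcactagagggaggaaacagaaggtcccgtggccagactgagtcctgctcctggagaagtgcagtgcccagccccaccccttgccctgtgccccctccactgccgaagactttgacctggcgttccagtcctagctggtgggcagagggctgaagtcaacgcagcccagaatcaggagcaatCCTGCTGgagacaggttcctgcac

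These promoters differed in base composition. Gabra6 held 0 CpG dinucleotides in its 300 bases, Pcp2 and Fat2 held 3 each, and En2 held 33. Over the 68 matched members the median GC content was 62.7%, against 60% for 11734 promoters of genes on the array and 52.3% for all 27457 promoters of the table. Fewer than 5 CpG were found in 8 of the 68 (11.8%), against 13.4% of the promoters of array genes. The E-box letters CAGCTG, bound by basic helix-loop-helix factors such as NEUROD1, were in 14 of 68 (20.6%; 16.6% of array genes and 15.1% of all). CAGCAGG, a motif of ZIC factors, was in 8 (11.8%; 10.4% and 9.8%), and TATAAA, the TATA box, was in 4 (5.9%; 8.45% and 14.3%). TAATTA, a homeodomain motif, was in 1, that of Mab21l1 (1.5%; 2.46% and 5.35%). TAGGTCA, an ROR motif, and the palindromic NFI motif were in 0, against 1.79% and 0.0682% of array genes. Both strands were searched, no motif contains another, and a match is only a match of letters. In Dao the E-box began 245 bases before the start and the ZIC letters at base 27 after it, and in Ppp1r17 the E-box began 80 bases before the start.

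The array as a whole stood apart. The mean level of the 88 members was 9.19 on it and 6.27 to 6.54 on the other 23, and their summed intensity 87175 against 10703 to 13537. Its median correlation with the other arrays was 0.916, where the other arrays had 0.964 to 0.974. Its 3' to 5' log2 ratio of Gapdh, a measure of RNA integrity on these arrays, was 0.97 against 0.65 to 0.72 on the other arrays at 500 mg/kg, and that of beta-actin was 2.71 against 2.27 to 2.69. The part of RNA quality in the members' level was not tested.

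Markers of Purkinje cells led the list. Pcp2 stood at 12.34 on the outlying array, at 6.20, 6.44 and 6.18 on the other arrays at 500 mg/kg, and between 5.91 and 6.86 on all the other 23 (median 6.40). Pcp2, a regulator of G proteins made in Purkinje cells, thus had the largest difference at the probe sets the rule read, 6.06 or 66.9-fold on this scale, which understates the change of dim genes, with a deposited intensity of 4882 against a range of 37.3 to 112 on the other arrays. Car8 stood at 11.81 on the outlying array, at 6.43, 6.68 and 6.50 on the other arrays at 500 mg/kg, and between 6.03 and 6.74 on all the other 23 (median 6.38). Car8 encodes a carbonic anhydrase relative that binds the IP3 receptor and was 5.28 higher. Ppp1r17, an inhibitor of protein phosphatases that Purkinje cells make, was 4.71 higher, and Slc1a6, their glutamate transporter, was 2.85 higher. In all, 8 of 16 measured Purkinje genes were members and 12 of 16 stood above every other array, with a median difference of 1.96 against 0.00 for all genes. Foxp2, a transcription factor of Purkinje cells and also of striatum, went the other way at -1.90.

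Granule cell genes were also high. Cbln1 stood at 11.47 on the outlying array, at 6.02, 4.17 and 6.10 on the other arrays at 500 mg/kg, and between 4.17 and 7.56 on all the other 23 (median 6.10). Cbln1, which granule cells secrete to join parallel fibres to Purkinje spines, had a SD of 0.65 over the other 23 arrays, where the median member had 0.32. Gabra6 stood at 10.73 on the outlying array, at 5.25, 4.57 and 4.98 on the other arrays at 500 mg/kg, and between 4.40 and 5.98 on all the other 23 (median 5.55). Gabra6 is the GABA-A receptor subunit of granule cells. Fat2 stood at 10.39 on the outlying array, at 4.99, 4.74 and 4.37 on the other arrays at 500 mg/kg, and between 4.37 and 5.74 on all the other 23 (median 5.13). Fat2 is a large cadherin of granule cell axons. Neurod1, the basic helix-loop-helix factor of maturing granule cells, stood at 11.86 and was 4.84 higher. Of 18 measured granule cell genes, 8 were members and 17 stood above every other array, with a median difference of 2.42. The other members of the list were Mab21l1, a developmental factor (4.31), Chn2, a Rac GTPase activator (2.91), Pax6 (2.48) and Etv1 (2.16), both transcription factors. The genes Zic1, Zic2 and Zic4, transcription factors of granule cells, fell short of the rule at 1.46, 1.82 and 1.54, and 2 of the 3 were above every other array.

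**Figure D1:**
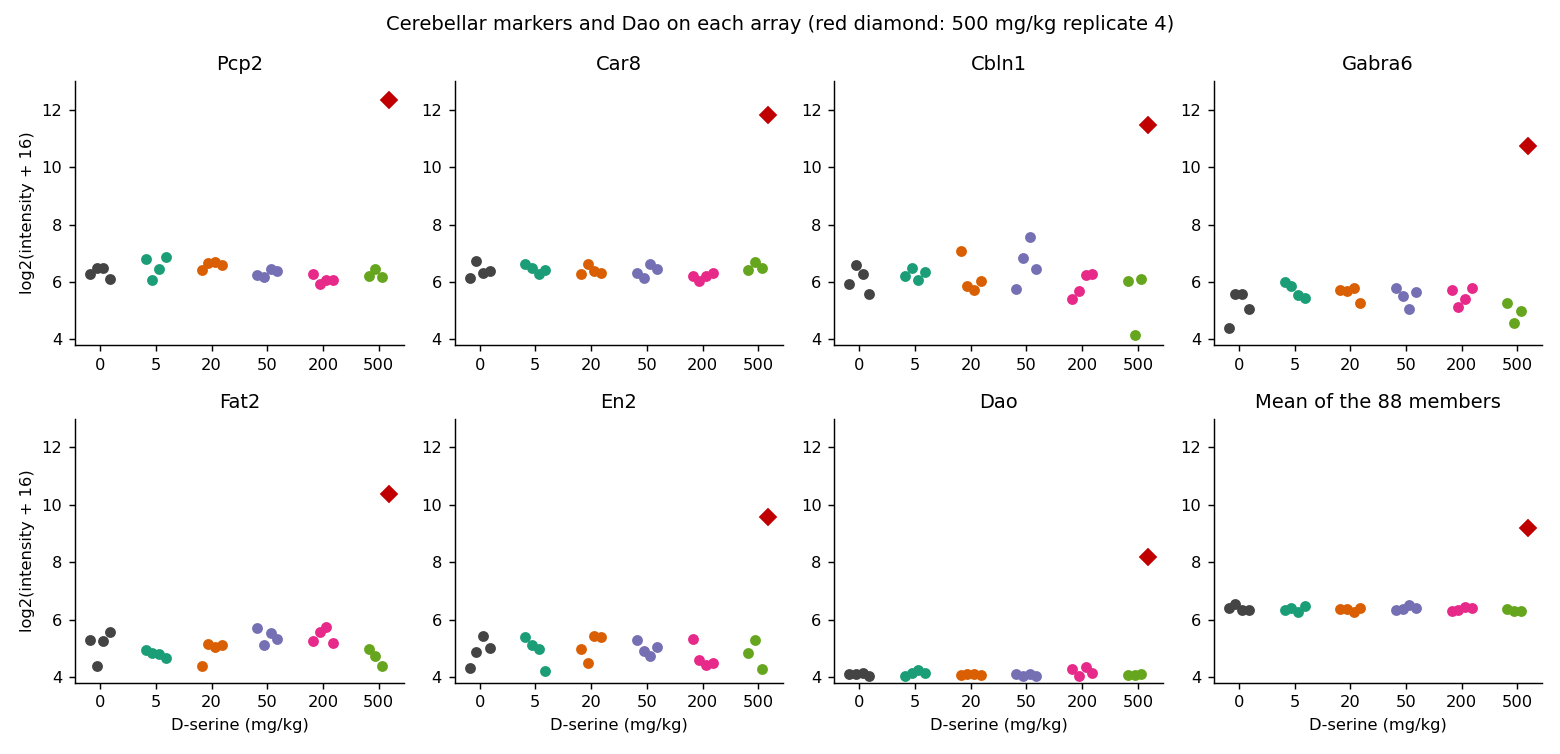
Level of cerebellar markers and Dao on each of 24 arrays, as log2(intensity + 16) on the vertical axis, by D-serine dose on the horizontal axis. Points are single arrays and the red diamond is 500 mg/kg replicate 4, which stands at 12.34 for Pcp2 where no other array exceeds 6.86.

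Genes of glia, of interneurons and of position were also present. Of 9 measured Bergmann glia genes, 4 were members: Dao (4.12), Gdf10, a secreted growth factor of Bergmann glia (3.13), Timp4, a protease inhibitor (2.22), and Gli1, the effector of hedgehog signalling (2.14). Hopx and Fabp7, genes of radial glia and astrocytes on the same list, were -0.89 and -0.87. Eomes, a transcription factor of unipolar brush cells (2.68), and Tfap2b, of cerebellar interneurons (2.88), were members among 6 measured genes of those cells. The glycine transporter Slc6a5 of the same list was at 0.02, and Grm2, a glutamate receptor, at -1.13. Of 9 measured genes of midbrain and hindbrain position, En2, a homeobox factor (4.76), Irx3 (2.88) and Meis1 (2.39), also homeobox factors, were members. On that list 5 of 9 genes stood above every other array, with a median difference of 1.49. Irx1 and Pax2 fell short of the rule at 1.80 and 1.49. Irx5, Irx2, Gbx2 and Pax8 differed by 0.42, 0.33, 0.28 and -0.31 and were not above every other array. In bulk tissue, more cells of a type and more RNA per cell cannot be told apart.

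En2 stood at 9.56 on the outlying array, at 4.82, 5.29 and 4.29 on the other arrays at 500 mg/kg, and between 4.21 and 5.43 on all the other 23 (median 4.96). Dao stood at 8.19 on the outlying array, at 4.06, 4.06 and 4.10 on the other arrays at 500 mg/kg, and between 4.03 and 4.36 on all the other 23 (median 4.10). The floor of the scale is 4, so Dao lay at or near the floor on all the other arrays at every dose of D-serine. Dao encodes D-amino acid oxidase, the enzyme that breaks down D-serine, and its deposited intensity was 267 against 0.3 to 4.3. The mean of Dao was 4.10 ± 0.04 (SD, n = 4) with vehicle, and 4.14 ± 0.08, 4.08 ± 0.02, 4.07 ± 0.04, 4.21 ± 0.14 (n = 4 each) and 4.07 ± 0.02 (n = 3) at 5, 20, 50, 200 and 500 mg/kg. Of 6 measured genes for D-serine handling Dao alone was a member. The transporters Slc1a4, Slc1a5, Slc7a10 and Slc38a1 and the citrate carrier Slc25a1 differed by -0.64, 0.31, 0.27, 0.34 and 0.19.

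Purkinje cells release calcium from stores through the IP3 receptor, and 6 of 14 measured genes of that pathway were members. Besides Car8 they were Atp2a3, a calcium pump of the endoplasmic reticulum (3.64), Homer3, a postsynaptic scaffold that links receptor and store (2.91), Calb1, the calcium buffer calbindin (2.06), Inpp5a, a phosphatase of IP3 (2.04), and Plcb4, the phospholipase that makes IP3 (2.02). Further probe sets of Atp2a3 and Inpp5a differed by only 0.30 and 0.10 and were not above every other array. Those of Homer3 and Plcb4 differed by 1.41 and 1.63 and were above every other array. The IP3 receptor itself, Itpr1, was 1.01 higher and Plcb3 1.58 higher. Gnaq, Gna11, Atp2a2 and Atp2b2, the G proteins and pumps of many neurons, differed by 0.15, 0.04, 0.26 and 0.03. Of the list, 10 of 14 genes stood above every other array, with a median of 1.29. Cbln1 was the only member among 8 measured genes of the cerebellin family and its partners. Cbln2, a relative of Cbln1, was at -2.20, C1ql3 at -2.51, and the receptor gene Nrxn3 at 1.22.

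Of the 88 members 25 were on a cerebellar or position list, Atp2a3 was on the calcium list alone, and the other 62 were on none and are members by the rule only. The largest of them were LOC102553190 (4.40), a gene without a name, and Il16, a cytokine precursor with a neuronal form (4.17). Of all members 23 differed by more than 3, 12 by more than 4 and 5 by more than 5, while 47 differed by less than 2.5. The median difference was 2.44, or 5.42-fold. The gap between the outlying array and the next highest array ran from 0.54 (Agt, the angiotensinogen precursor) to 5.48 (Pcp2), with a median of 1.91, and was over 1 for 82 members. Nearest above the threshold were Plcb4 (2.02), Fat1 (2.02), Ubash3b (2.01), Impg1 (2.004) and Idi1 (2.0005). Nearest below it were Unc13c (1.96), Palld (1.96), Gprc5c (1.95), Sh3bgr (1.94) and Gnmt (1.93).

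The members on no list fell into several kinds of protein, grouped here after their values were seen. Receptors and their ligands or coreceptors included Ret, the receptor kinase for GDNF family ligands (3.69), Mrgprf, an orphan G protein coupled receptor (3.76), Sdc1, the proteoglycan syndecan (3.21), and Flt3, a receptor kinase better known from blood progenitors (2.33). Ret was far higher on the outlying array: it stood at 8.93 on the outlying array, at 5.73, 5.57 and 4.42 on the other arrays at 500 mg/kg, and between 4.14 and 6.08 on all the other 23 (median 5.55). Nuclear regulators included Chd7 (3.69), Zfp521, a zinc finger factor (2.94), Skor1, a corepressor (2.92), Bcl6, a repressor (2.24), Uncx, a homeobox factor (2.22), and Mab21l2, a relative of Mab21l1 (2.17). Mab21l1 of the granule cell list and Mab21l2 stood at 8.46 and 7.92 on the outlying array.

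Proteins of membranes and synapses formed another share of the members without a list. They included Tspan9 and Tspan4, tetraspanins (2.95) and (2.32), Fat1, a cadherin related to Fat2 (2.02), Mpp3 and Mpp4, membrane scaffolds (2.22) and (2.48), Ppfia4, a liprin of the presynaptic zone (2.21), and Hpcal1, a neuronal calcium sensor (3.02). Of metabolism there were Csad (2.26), Oplah, the oxoprolinase of glutathione turnover (2.34), Slc19a1, the reduced folate carrier (2.32), and Idi1, an isomerase of sterol synthesis. Slc19a1 stood at 6.77 on the outlying array, at 4.49, 4.50 and 4.38 on the other arrays at 500 mg/kg, and between 4.33 and 4.57 on all the other 23 (median 4.46). The values of Slc19a1 on the other arrays were the tightest of all members, with a SD of 0.07. They lay near the floor of 4, where the scale understates spread. The least tight were those of Spp1, with a SD of 0.92, which stood at 9.12 on the outlying array and reached 8.22 elsewhere.

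**Figure D2:**
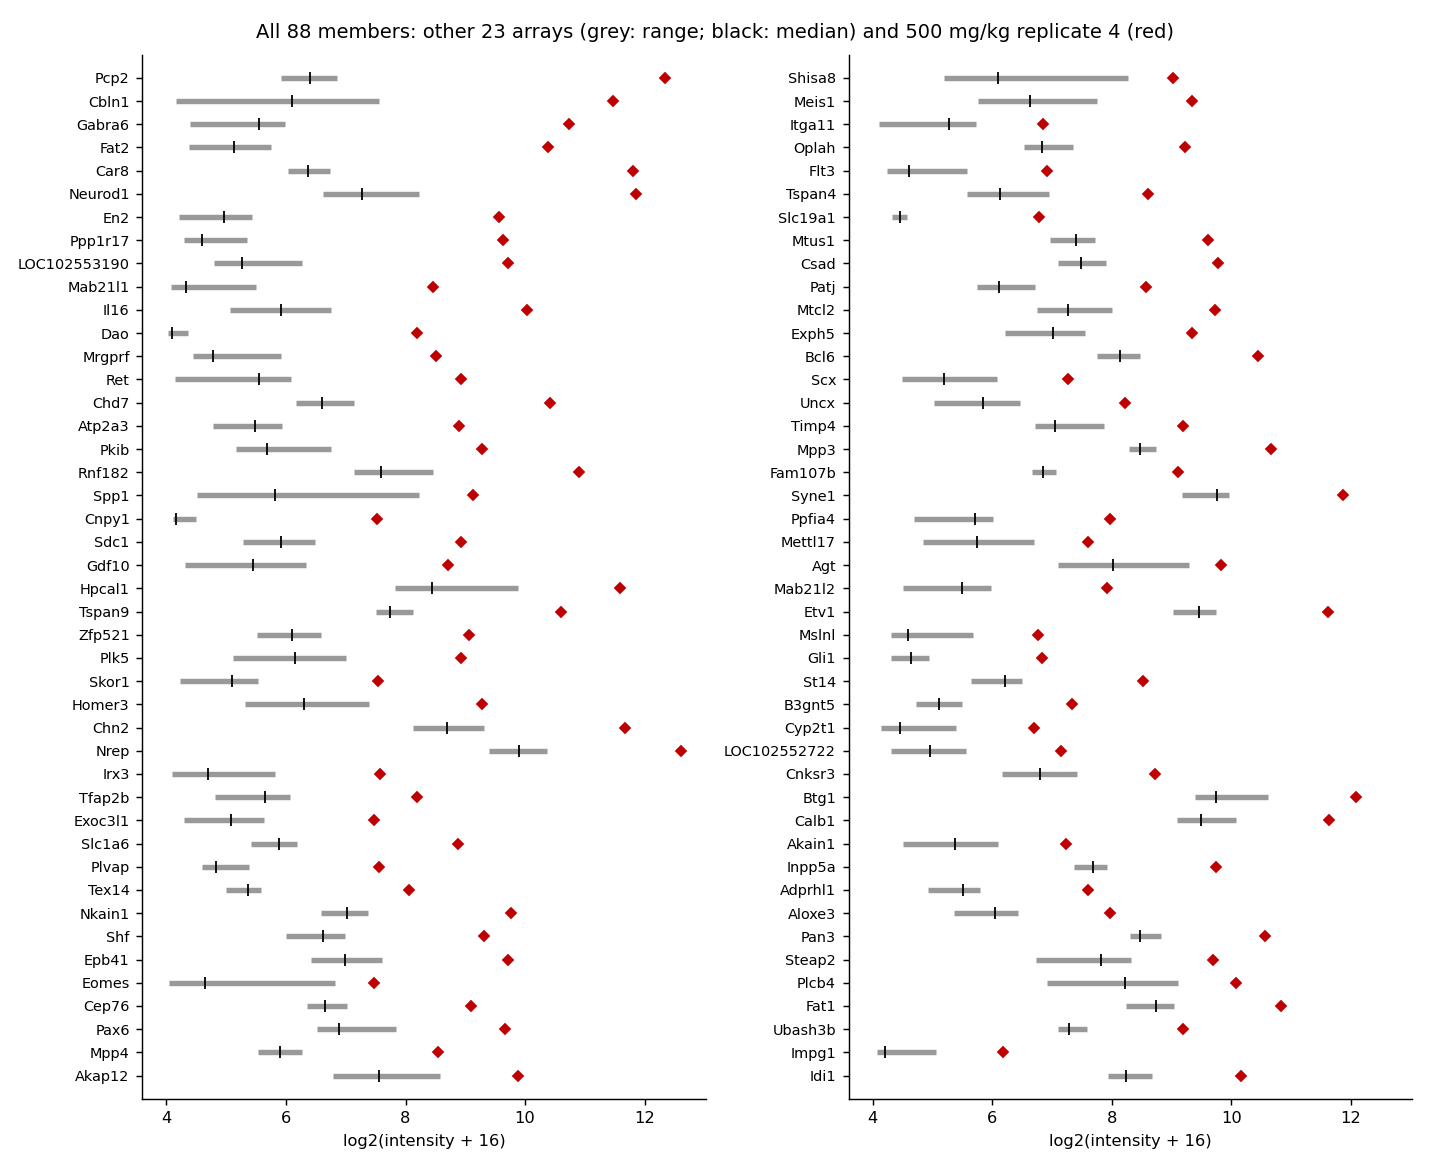
All 88 members, in panels by decreasing difference, with log2(intensity + 16) on the horizontal axis. Grey bars span the other 23 arrays, black ticks are their medians and red diamonds are 500 mg/kg replicate 4, each to the right of its bar by 0.54 to 5.48.

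The rule read 1 probe set per gene, and 38 members had further probe sets, 53 in all. Of these 40 were above every other array, against 13.3% of the 6609 further probe sets of all named genes, and 18 were at least 2 higher. The further probe set of Gabra6 differed by 7.65 and that of Cbln1 by 5.88. There were 13 that differed by less than 0.5, and 5 that were lower, such as a probe set of Syne1, a nuclear envelope spectrin, at -0.66. Among the 13 were probe sets of LOC102553190 (0.07), Tspan9 (0.37) and Irx3 (0.44), none of them above every other array. LOC102553190 and Irx3 each had another further probe set, 1.73 and 1.72 higher and above every other array. These probe sets come from the same array and share its RNA.

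Set against the labelled tissue, the same array was low in forebrain genes. Of 9 measured genes of forebrain position, 7 were below every other array, with Lhx2 at -3.85, Dlx1 at -3.36, Lmo3 at -2.71 and Emx2 at -1.95. Of 12 measured genes of cortical excitatory neurons, 9 were below every other array, with a median of -1.36, and Sv2b (0.25) and Lamp5 (-0.27) differed least. Of 12 striatal genes, 5 were below every other array, with a median of -1.72. The mean of the striatal list was 6.51 on the outlying array and varied from 6.72 to 9.19 on the other 23. The forebrain position list stood at 5.15 against 6.63 to 6.98, and the cortical list at 7.43 against 9.02 to 9.53. For all genes 17.9% stood above and 17.3% below every other array. The genes furthest below were Nrgn, a calmodulin-binding protein of forebrain dendrites (-4.81), Bcl11b, a transcription factor of striatal and cortical neurons (-4.79), Cck, a neuropeptide (-4.31), Camk2a, the synaptic kinase (-4.10), Cobl (-4.09), Mpped1 (-4.04), Ddn (-4.02), Mef2c (-4.01), Enc1 (-3.94), Inf2 (-3.85), Lhx2 and Gda (-3.82). In all, 170 genes (1.20%) met the rule's mirror image. The Hox genes, which mark medulla and spinal cord, had a median of 0.40 with 1 of 12 above every other array, and the monoaminergic brainstem genes a median of 0.22. Choroid plexus, thalamic, oligodendrocyte, astrocyte, meningeal, blood, pituitary and olfactory bulb lists had medians from -0.62 (blood) to 0.34 (choroid plexus). Single choroid plexus genes differed more: Ttr by 5.76, Sostdc1 by 1.85 and F5 by 1.64, with the others from -0.09 (Prlr) to 0.84 (Kcne2). The thalamic gene Slc17a6 differed by 1.52, with the others from -0.26 (Tcf7l2) to 0.88 (Prkcd). No choroid plexus or thalamic gene stood above every other array. The list of microglia was lower, with 8 of 9 genes below every other array and a median of -0.71.

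**Figure D3:**
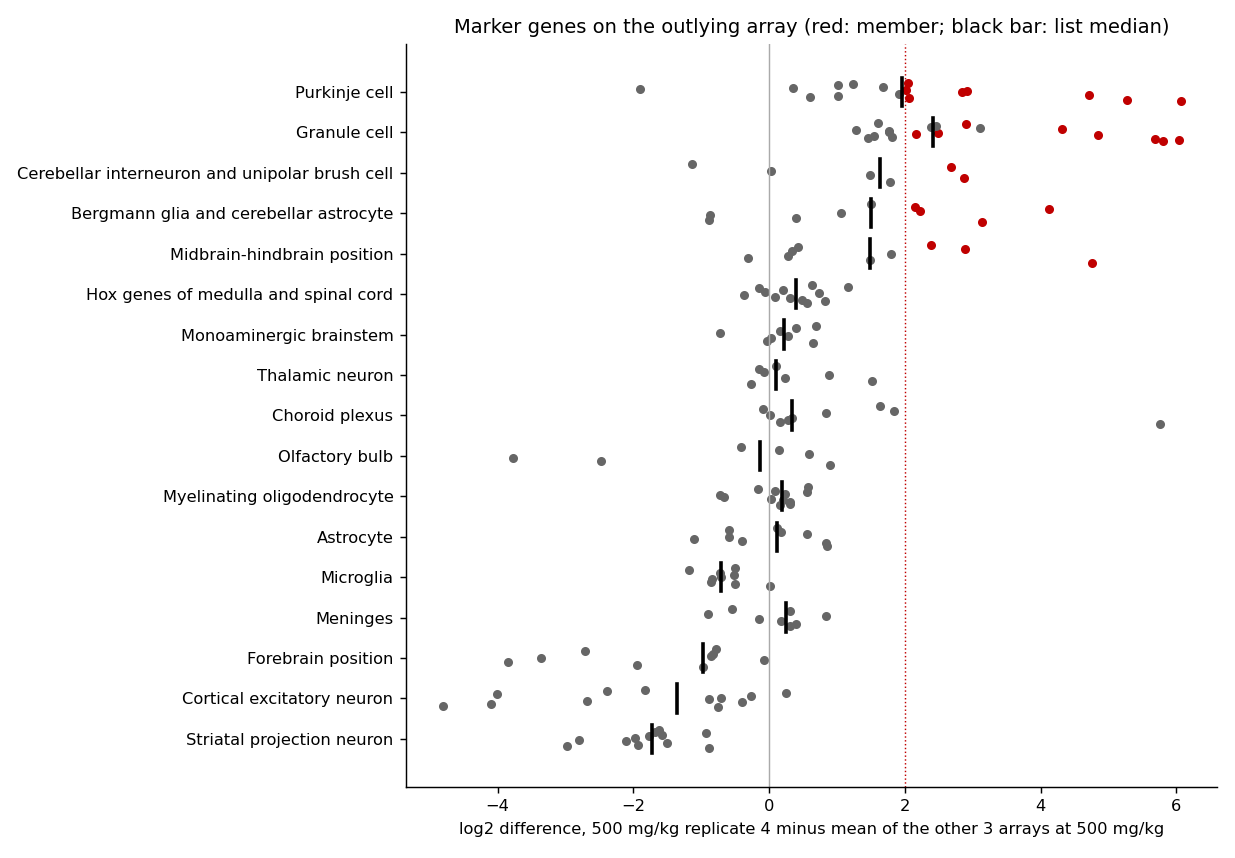
Difference of each marker gene on the outlying array, with the lists on the vertical axis and the log2 difference from the mean of the other 3 arrays at 500 mg/kg on the horizontal axis. Red points are members, grey points are not, black bars are list medians and the dotted line is the threshold of 2. The list of the 6 markers is left out. Of the lists shown, the granule cell list has the highest median, 2.42, and the striatal list the lowest, -1.72. The mean of the striatal list was 6.51 on the outlying array and varied from 6.72 to 9.19 on the others.

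Whether D-serine moved the members was asked on the 23 other arrays, with the outlying array left out of the fit. Group means of the members' average were 6.40 ± 0.09, 6.37 ± 0.09, 6.35 ± 0.06, 6.40 ± 0.07 and 6.36 ± 0.08 (SD, n = 4 each) for vehicle and 5, 20, 50 and 200 mg/kg, and 6.32 ± 0.03 (SD, n = 3) at 500 mg/kg. The arrays of every dosed group overlapped with the vehicle arrays, which ran from 6.34 to 6.54. Median member differences from vehicle were -0.01, -0.04, -0.01, -0.04 and -0.05 at 5, 20, 50, 200 and 500 mg/kg, where those of all probe sets were within 0.01 of 0. Only 46 of the 88 members were bright enough on these arrays to be tested, and 42 were not.

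A few members fell at the low doses. At 5 mg/kg 2 of 46 tested members passed the threshold, where 8.98% of 18625 probe sets did (5.59% higher and 3.39% lower), and both were lower. At 20 mg/kg 3 of 46 passed, where 12.7% of probe sets did (7.29% higher and 5.42% lower), and all were lower. At 50 mg/kg 0 of 46 passed, where 2.46% of probe sets did (1.76% higher and 0.703% lower). At 200 mg/kg 0 of 46 passed, where 0% of probe sets did. An unadjusted p under 0.05 (limma) was found for 3 of 46 members and 3088 of 18625 probe sets at 50 mg/kg. It was found for 4 members and 1348 probe sets at 200 mg/kg. The groups did not overlap with vehicle for 5, 3, 0 and 2 of the 88 members at 5, 20, 50 and 200 mg/kg, where 8.84%, 9.88%, 5.49% and 3.12% of all genes did not. At 500 mg/kg the rule used the 3 remaining arrays as its baseline, and no test was made. There 6 members and 6.05% of genes did not overlap. Of the 88 members 56 were below vehicle, where 51.0% of all genes were above it. A rule that asks for a gap over these 3 arrays favours genes that are low on them. The members' values at 500 mg/kg therefore cannot be weighed against vehicle. At the tested doses the counts of members lie near or below those of all genes. The 4 comparisons share the vehicle arrays.

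Mtcl2, which cross-links microtubules, fell at both doses. Its arrays stood at 7.57, 8.01, 7.43 and 7.55 with vehicle, at 7.26, 6.74, 6.91 and 7.20 at 5 mg/kg and at 7.11, 7.004, 6.96 and 6.82 at 20 mg/kg. At higher doses they were 7.44, 7.14, 7.41 and 7.10 (50 mg/kg), 7.38, 7.17, 7.18 and 7.30 (200 mg/kg) and 7.66, 7.41 and 7.36 (500 mg/kg). No array at 5 or 20 mg/kg reached the lowest vehicle array. The differences from vehicle were -0.61 ± 0.13 (SE; adjusted p = 0.00413, limma) at 5 mg/kg and -0.67 ± 0.13 (adjusted p = 0.00139, limma) at 20 mg/kg.

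Csad, the decarboxylase that makes the taurine precursor, stood at 7.69, 7.91, 7.52 and 7.85 with vehicle, at 7.39, 7.39, 7.28 and 7.10 at 5 mg/kg and at 7.42, 7.55, 7.16 and 7.47 at 20 mg/kg. The 5 mg/kg arrays were all below vehicle (difference -0.45 ± 0.11, SE; adjusted p = 0.0119, limma). The 20 mg/kg arrays overlapped with vehicle (-0.34 ± 0.11; adjusted p = 0.0463, limma). Chd7, a chromatin remodeller of the chromodomain family, stood at 6.75, 7.14, 6.45 and 6.88 with vehicle and at 6.17, 6.29, 6.16 and 6.25 at 20 mg/kg, with no overlap. Its difference was -0.59 ± 0.13 (adjusted p = 0.0053, limma). The further probe sets of Chd7 gave -0.06 and -0.25 at that dose (adjusted p = 0.849 and 0.271, limma). Csad at 20 mg/kg passed in 9 of the 23 fits that left out 1 array, with an adjusted p of 0.172 without 20 mg/kg replicate 3 and of 0.135 without vehicle replicate 2, and the calls for Mtcl2, for Chd7 and for Csad at 5 mg/kg passed in 23 of 23.

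Where no member passed, those of smallest p at 50 mg/kg were Mtcl2 (-0.37 ± 0.13), Meis1 (-0.77 ± 0.29), St14, a membrane protease (0.32 ± 0.14), and Neurod1 (0.49 ± 0.28), with adjusted p of 0.133, 0.168, 0.224 and 0.401 in limma. At 200 mg/kg they were Mtcl2 (-0.39 ± 0.13), Plk5, a polo-like kinase (-0.65 ± 0.30), Tspan4, a tetraspanin (0.38 ± 0.18), and Nrep, a regulator of neurite growth (-0.34 ± 0.16), with adjusted p of 0.531, 0.666, 0.683 and 0.687.

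**Figure D4:**
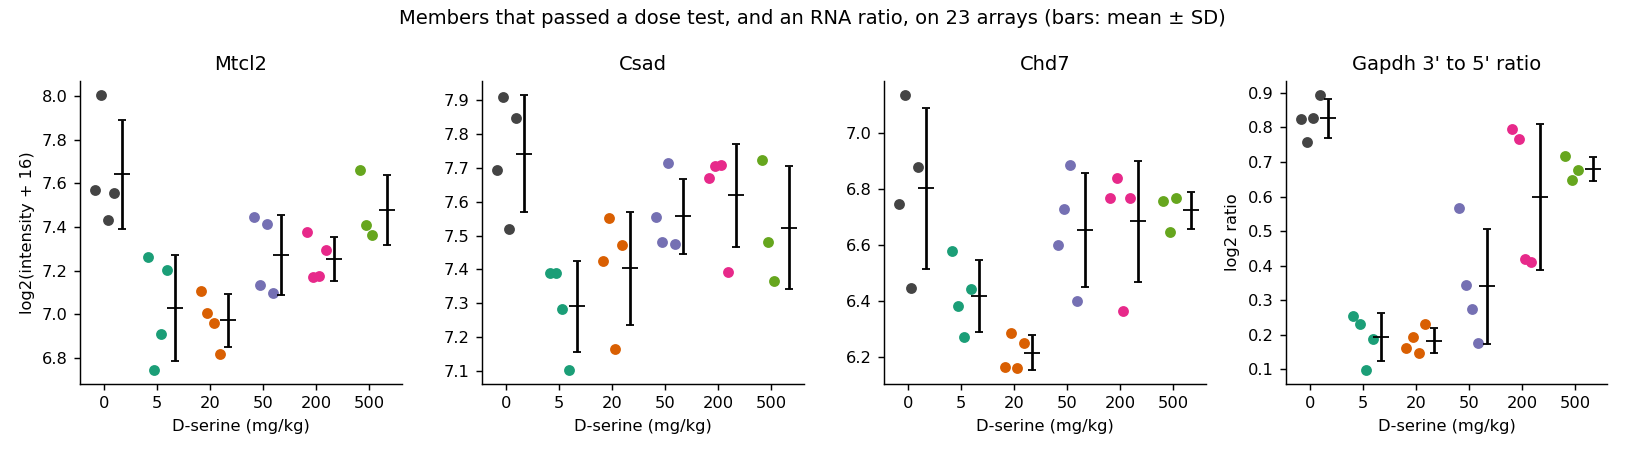
Mtcl2, Csad and Chd7 as log2(intensity + 16), and the Gapdh 3' to 5' log2 ratio, on 23 arrays by D-serine dose. Points are arrays and bars are mean ± SD; the Gapdh ratio is 0.83 with vehicle and 0.19 and 0.18 at 5 and 20 mg/kg.

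Animal numbers ran in blocks by dose: 243 to 246 for vehicle, 247 to 251 for 500 mg/kg and 253 to 256 for 200 mg/kg. The blocks went on with 257 to 261 for 50 mg/kg, 262 to 266 for 20 mg/kg and 267 to 271 for 5 mg/kg. Dose therefore cannot be told apart from animal number, for the calls of Mtcl2, Csad and Chd7 or for RNA ratios. The Gapdh 3' to 5' ratio differed between the dose groups. It was 0.83 ± 0.06 with vehicle, 0.19 ± 0.07, 0.18 ± 0.04, 0.34 ± 0.17 and 0.60 ± 0.21 at 5, 20, 50 and 200 mg/kg (SD, n = 4 each), and 0.68 ± 0.03 (n = 3) at 500 mg/kg. With this ratio as a covariate no probe set passed at any dose, and 2, 3, 2 and 1 of 46 members had an unadjusted p under 0.05 at 5, 20, 50 and 200 mg/kg (954, 901, 906 and 738 of all probe sets). Single arrays ran from 0.76 to 0.89 with vehicle, from 0.10 to 0.26 at 5 mg/kg and from 0.15 to 0.23 at 20 mg/kg. A fit with the covariate can therefore hardly tell the ratio from these doses. The part of RNA quality in the calls was not tested. The differences with the covariate were -0.46 and -0.52 for Mtcl2 at 5 and 20 mg/kg, -0.24 and -0.12 for Csad, and -0.29 for Chd7 at 20 mg/kg. The median over the tested members was -0.12 and -0.18 at these doses, against -0.03 and -0.07 without the covariate. Of the probe sets called, 62.3% at 5 mg/kg and 57.4% at 20 mg/kg were higher, against 81.4% and 76.6% with median centring, under which Mtcl2 and Chd7 at 20 mg/kg and Mtcl2 and Csad at 5 mg/kg were still called lower. With the deposited values, which were not quantile normalized, none of these genes passed, and Mtcl2 and Chd7 at 20 mg/kg stood at -0.29 and -0.27, Mtcl2 and Csad at 5 mg/kg at -0.42 and -0.25, and Csad at 20 mg/kg at 0.0459. Instead, 12 other members passed at 20 mg/kg, all higher, among 8147 probe sets of which 99.6% were higher, and the median of all probe sets was 0.37 higher. At 5 mg/kg it was 0.19 higher, and 1 member, Exph5, passed, higher. With the outlying array kept in the fit 0 members passed at any dose. The median residual SD of members was then 0.59, against 0.25 without that array, and that of all probe sets 0.20 against 0.18.

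Among the other 23 arrays the members had a range of spreads, with a SD of 0.07 to 0.92 (median 0.32). Vehicle replicate 2 was the highest of those arrays for 16 members, among them Mtcl2, Csad and Chd7. The thalamic list stood at 8.40 there and at 8.06 on 50 mg/kg replicate 3, which was the highest for 7 members including Cbln1, against 6.08 to 6.78 on the other 21. The choroid plexus list stood at 7.67 and 7.79 on these arrays, against 5.85 to 7.58. The part of such cells in the members' level was not tested. With vehicle replicate 2 left out, Mtcl2 still passed at both doses.

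Some members stood high on the arrays with the highest olfactory bulb markers. On 5 mg/kg replicate 4, 200 mg/kg replicate 3, 500 mg/kg replicate 3, 50 mg/kg replicate 1 and vehicle replicate 3 the mean of 6 olfactory bulb genes was 8.96, 8.37, 8.24, 8.15 and 8.14, against 6.80 to 7.87 on the other 18. On the same arrays, in the same order, Shisa8, an AMPA receptor modulator, stood at 8.26, 7.85, 7.34, 7.53 and 6.999, against 5.19 to 6.98. Spp1, the secreted protein osteopontin, stood at 8.22, 7.88, 6.70, 6.62 and 6.90, against 4.51 to 6.20. Each of those arrays belongs to a different dose group. Pax6 stood at 7.84, 7.47, 7.51, 7.44 and 7.37, against 6.52 to 7.27, and Eomes at 6.78, 6.83, 5.81, 5.42 and 5.90, against 4.04 to 5.44, so that only Eomes overlapped. Both are transcription factors made in olfactory bulb as well as cerebellum. These 4 genes were chosen after their values were seen, no test was made, and the part of bulb tissue was not tested. On the outlying array the olfactory bulb list stood at 6.82, near the low end of the other 23 arrays (6.80 to 8.96). Of its 6 genes 2 were below every other array, Synpr (-3.78) and Cdhr1 (-2.47). The others differed by -0.42 (Nmb) to 0.90 (Doc2g).

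**Figure D5:**
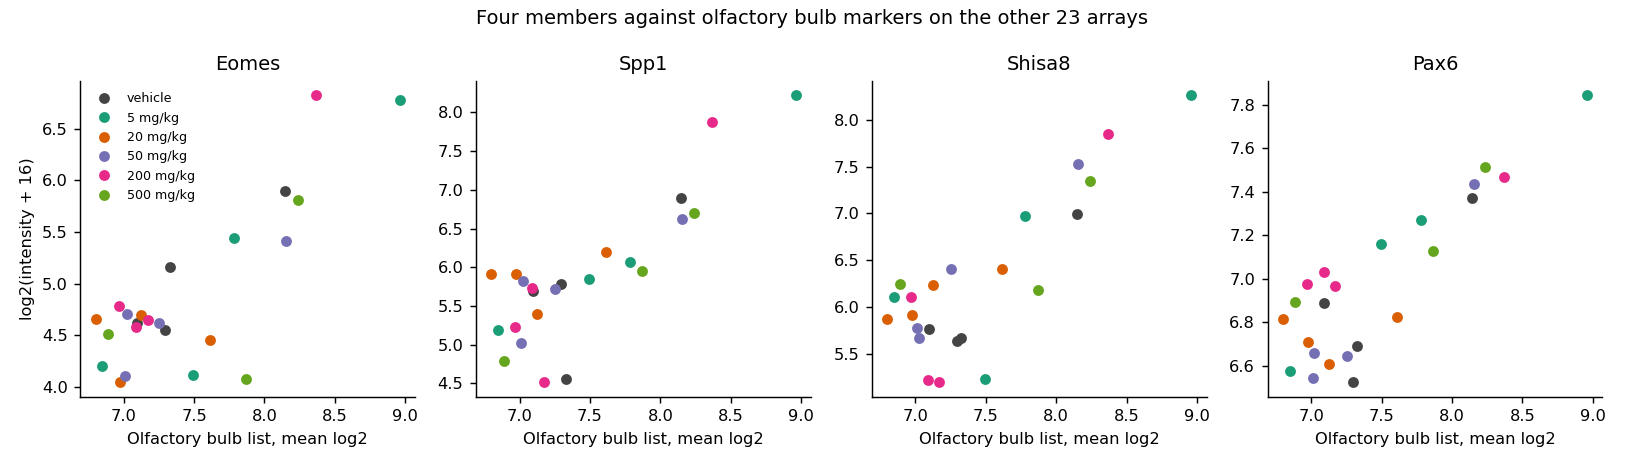
Level of Eomes, Spp1, Shisa8 and Pax6, as log2(intensity + 16) on the vertical axis, against the mean of 6 olfactory bulb genes on the horizontal axis, for the 23 arrays other than 500 mg/kg replicate 4. Points are arrays coloured by dose group; the array farthest right, 5 mg/kg replicate 4, stands at 8.96 for the list and at 8.26 for Shisa8.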

How the data were processed

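RNA of 24 rats was measured on Affymetrix rat arrays, and groups were taken from the labels. The authors deposited intensity, 1 linear signal per probe set, made with GCOS per the submitters' processing notes; neither its version nor its settings are given in the sources used here. Precision is limited by the number of arrays, 4 per group; array medians ran from 55.8 to 104. Each array is a separate rat, so p-values measure the spread between rats. Intensities were quantile normalized and taken as log2(intensity + 16), which understates changes of dim genes. Control probe sets were left out. A gene stands at its probe set of highest mean. Names came from the platform annotation and RefSeq GRCr8: 20832 probe sets had 1 symbol, 436 several and 9831 none.

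Dose comparisons used limma 3.58.1 in R 4.3.3 on 23 arrays without the outlying array, with group means, an intensity trend and Benjamini-Hochberg adjustment over 18625 probe sets, after leaving out the dimmest 40%; "passed" means an adjusted p under 0.05. The fit was tested on simulated data with independent noise and no shift of the Gapdh ratio. It recovered 48% of changes of 0.5 and 92% of changes of 1, with 7 false calls among 18425 unchanged probe sets. Changes of about 0.5 can therefore be missed. Other scalings, pseudocounts, filters, a Gapdh covariate and leaving out arrays were tried. Named genes were the 6 markers, the 12 members with the largest difference, list members, the genes nearest the threshold, those of smallest p per dose, the 12 genes furthest below, and genes of pathway lists; others were chosen after their values were seen. The members and the gene lists were chosen with earlier results of these data known.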

Additional observations from a re-analysis of the deposited data

Results flagged for a closer look

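Each group of 4 arrays was searched for an array far from the other 3, by the gap to the nearest array as a share of the group's whole range, which must be above Dixon's 95% critical value. Of 150 groups examined in 25 measures, 29 were past it. Chance gives about 1 in 20 groups for measures chosen beforehand. The measures share arrays, and some of their genes were chosen after their values were seen. The count of 29 therefore cannot be weighed against that rate.

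The outlying array, 500 mg/kg replicate 4, accounted for 13 of them. The shares were 0.98 for the mean of the members, 0.944 for the forebrain position list, 0.877 for the cortical excitatory neuron list, 0.879 for the thalamic neuron list, 0.902 for the choroid plexus list, 0.958 for Pcp2, 0.889 for Gabra6, 0.897 for Fat2, 0.953 for Car8, 0.99 for Dao, 0.874 for Mtcl2, 0.852 for Csad and 0.968 for Chd7. These values restate how the members were chosen, except for the lists. The forebrain position and cortical lists were lower on that array than on the others of its group. The thalamic list was higher (6.72, others 6.38 to 6.42), as was the choroid plexus list (7.17, others 5.91 to 6.03).

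On the other arrays, these stood apart in their group: the cortical excitatory neuron list in vehicle replicate 2 (9.05, others 9.37 to 9.44, share 0.84), the striatal projection neuron list in vehicle replicate 4 (9.19, others 7.63 to 7.65, share 0.988), the striatal projection neuron list in 50 mg/kg replicate 1 (8.95, others 6.72 to 6.87, share 0.935), the thalamic neuron list in 5 mg/kg replicate 4 (6.45, others 6.25 to 6.28, share 0.846) and the thalamic neuron list in 50 mg/kg replicate 3 (8.06, others 6.34 to 6.52, share 0.896). Likewise the olfactory bulb list in 200 mg/kg replicate 3 (8.37, others 6.97 to 7.17, share 0.856), the choroid plexus list in vehicle replicate 2 (7.67, others 5.91 to 6.18, share 0.848), the choroid plexus list in 50 mg/kg replicate 3 (7.79, others 5.93 to 6.23, share 0.836), Gabra6 in 20 mg/kg replicate 4 (5.26, others 5.70 to 5.79, share 0.83), Fat2 in 20 mg/kg replicate 1 (4.37, others 5.05 to 5.15, share 0.866) and Csad in 200 mg/kg replicate 4 (7.39, others 7.67 to 7.71, share 0.875). The same held for Chd7 in 200 mg/kg replicate 3 (6.36, others 6.77 to 6.84, share 0.845), Eomes in 200 mg/kg replicate 3 (6.83, others 4.58 to 4.79, share 0.908), Shisa8 in vehicle replicate 3 (6.999, others 5.64 to 5.76, share 0.91), Pax6 in 50 mg/kg replicate 1 (7.44, others 6.54 to 6.66, share 0.872) and Pax6 in 200 mg/kg replicate 3 (7.47, others 6.96 to 7.03, share 0.87). The entries for Eomes, Shisa8 and Pax6 restate how those genes were chosen. No explanation was tested.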

How the results depend on the processing

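Most counts depend on the scale and on the arrays. The rule gave 88 members, and 85 with median centring, 110 with deposited values, 165 with pseudocount 1, 41 with pseudocount 64, 52 after the filter of 40%, 23 at a difference of 3, and 82 to 86 without another array at 500 mg/kg.

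Probe sets passing at 5, 20 and 50 mg/kg numbered 1673, 2367 and 458. With all 24 arrays they were 1028, 1580 and 161, with 0 members at 5 and 20 mg/kg; with deposited values 1458, 8147 and 114, with 1 member at 5 and 12 at 20 mg/kg. With 1 probe set per gene they were 516, 741 and 73, with 1 member at 20 mg/kg; with the Gapdh covariate 0, with 0 members; with the arrays of both groups only 918, 1396 and 52. At 50 mg/kg no filter gave 275, median centring 296 and array weights 736, with 1 member. Of calls, 62.3%, 57.4% and 71.4% were higher, against 81.4%, 76.6% and 80.4% with median centring and 98.8%, 99.6% and 98.2% with deposited values. Csad at 20 mg/kg was 0.0459 higher with deposited values, and Neurod1 at 50 mg/kg was -0.37 with the covariate. The cause was not tested.

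Leaving out 1 array in turn gave 1065 (without 5 mg/kg replicate 3) to 1849 probe sets at 5 mg/kg and 1629 to 2619 at 20 mg/kg, with 2 to 5 members at each (5 without vehicle replicate 3). At 50 mg/kg the range was 122 (without 50 mg/kg replicate 4) to 940 (without replicate 1), with 0 to 1 members; it was 191 and 242 without vehicle replicates 1 and 4, and 186 and 204 without 50 mg/kg replicates 2 and 3. At 200 mg/kg it was 0 to 7 (without 200 mg/kg replicate 4; 1 without vehicle replicate 3). No paired analysis was possible because the labels give the rats no shared replicate numbers.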
